A study of Mus musculus with 4 samples.

Results

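Gpnmb and Apoc2 macrophages are described here in CD45+ leukocytes sorted from mouse brains that carried a mammary tumour. Female, immunocompetent C57BL/6 mice received intracranial implants of GFP-expressing EO771, a cancer line from the mouse mammary gland, and were given SCDi, an inhibitor of stearoyl-CoA desaturase, or vehicle for 14 days. Neither the compound and its dose nor the age of the mice is given in the sources used here. For each treatment the brains of 3 mice were pooled before sorting, and the immune sort (DAPI-/CD45+/GFP-) gave 1 library of single-cell 3' RNA counts. Every mouse in both groups thus carried the GFP-expressing tumour, and the brain is the only tissue analysed. With 1 library per group there is no replicate check: each comparison below describes 2 libraries of pooled animals, and each interval is a 95% interval that covers counting error only.

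The cells were chosen by measured values. A barcode was taken if it had at least 300 detected genes and at most 15% mitochondrial UMIs (unique molecular identifiers, which count captured RNA molecules). It also needed at least 3 UMIs of Gpnmb, at least 1 of Apoc2 and at most 1 of Pf4, fewer than 3 of 5 microglia genes detected (Tmem119, P2ry12, Sall1, Gpr34, Fcrls), and fewer than 3 UMIs in all of 6 lymphocyte genes (Cd3d, Cd3e, Cd3g, Cd79a, Ms4a1, Ncr1). This rule took 388 SCDi and 410 vehicle cells, 798 of the 13412 immune barcodes that passed the filter and of the 30856 deposited for the whole series. The comparison cells were 1567 SCDi and 1337 vehicle "other macrophages", which had at least 10 UMIs of the 3 C1q genes, at least 1 each of Csf1r and Adgre1, none of Flt3 and the same limits on microglia and lymphocyte genes, but were not taken by the rule. Because Gpnmb, Apoc2, Pf4 and the microglia and lymphocyte genes set the rule, their levels are given as a description only, and every difference from other macrophages is a description as well.

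Gpnmb encodes a transmembrane glycoprotein that macrophages make in quantity when they take up lipid, myelin or dead cells, and Apoc2 encodes the lipoprotein that activates lipoprotein lipase. In fatty liver, adipose tissue, atherosclerotic plaques and demyelinated brain, macrophages that hold much lipid are known to express these genes together with the sensor Trem2, the lipid carrier Apoe and many lysosomal genes. The lysosome breaks down engulfed material, and cholesterol freed in this way activates the LXR receptors, which raise transcription of Apoe and of sterol exporters. No lipid was measured in these libraries, so "lipid-laden" could not be checked and the cells are called by their 2 leading genes.

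The SCDi cells had a median of 19944 UMIs (range 3613 to 88596), against 17764 in vehicle cells (range 1580 to 89792), and a median of 1.46% mitochondrial UMIs, against 1.32%. Other macrophages had medians of 22275 UMIs in the SCDi and 19986 in the vehicle library. Per library, 8828917 SCDi and 8390375 vehicle UMIs fell in the Gpnmb and Apoc2 macrophages. Levels are given as CPM, the the summed UMIs of a gene per 1000000 summed UMIs of those cells. Doublet scores were among the highest of their library for 7.22% of SCDi and 5.61% of vehicle Gpnmb and Apoc2 macrophages, against 5.16% and 5.56% of all kept barcodes, and such cells were kept. Of the Gpnmb and Apoc2 macrophages 4 SCDi and 3 vehicle barcodes also occurred in another library of the series, where whole libraries shared 9 to 23 barcodes per pair. The same rule applied to the 2 tumour libraries took 0 SCDi cells and 1 vehicle cell.

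Gpnmb ran without a gap through the threshold. The median cell held 13 Gpnmb UMIs in the SCDi and 15 in the vehicle library, with highest values of 401 and 651 UMIs, and 61.1% of SCDi and 63.9% of vehicle cells held at least 10. Just inside the threshold, at 3 UMIs, lay 39 SCDi and 43 vehicle cells, and just outside, at 2 UMIs, lay 52 and 53 cells that met every other condition. Apoe stood at 5524 CPM in the SCDi cells just inside and 5980 CPM in those just outside, and at 8096 and 5278 CPM in the corresponding vehicle cells. Fabp5, a fatty acid binding protein, stood at 1937 CPM just inside and 987 CPM just outside in the SCDi library, and at 2859 and 1728 CPM in the vehicle library. Ctsk, the cathepsin K gene, stood at 16.4 and 16.6 CPM in the SCDi and 28.9 and 14.3 CPM in the vehicle library. Of these 3 genes Fabp5 was thus higher just inside in both libraries, and Apoe and Ctsk in the vehicle library alone. Apoc2 had a median of 6 UMIs in both libraries, and a further 90 SCDi and 108 vehicle cells met the rule in all but Apoc2, of which they had none. Just outside the limit on Pf4, at 2 UMIs, lay 21 SCDi and 33 vehicle cells that met every other condition, and 102 and 143 more had at least 3.

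The cells expressed macrophage markers, and the sum of their monocyte markers stood above that of other macrophages. C1qa, which encodes a chain of the first component of complement, stood at 1835 CPM in SCDi and 1981 CPM in vehicle cells, and C1qb, a second chain, at 2458 and 2674 CPM. The gate used for other macrophages was stricter, and 242 SCDi cells (62.4%) and 250 vehicle cells (61.0%) passed it. The condition most often missed was that on the C1q genes, which 119 cells missed in each library. Summed over 10 macrophage markers, Apoe among them, cells outside the gate had 14875 and 15296 CPM, against 18145 and 20300 CPM in other macrophages. Cells inside the gate had 29386 and 31474 CPM. Monocyte markers summed to 4277 CPM in SCDi and 3249 CPM in vehicle cells, against 2888 and 2694 CPM in other macrophages. Outside the gate they summed to 5684 and 4352 CPM, and inside it to 3530 and 2719 CPM. Gene by gene, 5 of the 9 monocyte markers were above other macrophages in the SCDi library and 3 of 9 in the vehicle library. Among all genes 43.2% and 49.0% were. The median log2 ratios of the 9 over other macrophages were 0.10 and -0.16. The part of monocytes among the cells was not tested. Microglia markers, 5 of which limited the rule, summed to 611 CPM in SCDi and 593 CPM in vehicle cells, against 306 and 369 CPM in other macrophages and 5932 and 5310 CPM in microglia. The most abundant transcripts were Fth1, the ferritin heavy chain, and then Apoe, at 14395 CPM in SCDi and 16219 CPM in vehicle cells. Lyz2, Ctss, Ctsb, Ftl1, Tmsb4x, Actb, Malat1 and, in the SCDi library, B2m completed the 10 most abundant genes, with Cd74 in 8th place in the vehicle library.

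Of the 5 marker genes of this cell type, Gpnmb and Apoc2 set the rule and Apoe, Ctsk and Fabp4 did not. Gpnmb lies on chr6:49036546-49070929 (plus strand) and Apoc2 on chr7:19671579-19677941 (minus strand) of GRCm38, and Apoc2 lies within the lipoprotein cluster that ends with Apoe at chr7:19696109-19699188 (minus strand). Apoe was higher in these cells than in other macrophages: 14395 against 4900 CPM in the SCDi library and 16219 against 7854 CPM in the vehicle library. Microglia, which are known to express Apoe, lay between the classes at 10548 CPM in the SCDi and 10772 CPM in the vehicle library. Apoe was detected in 99.5% of the cells of both libraries, but also in 79.3% of SCDi and 78.0% of vehicle lymphocytes, at 252 and 239 CPM, so that its level and not its presence set the classes apart.

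Ctsk and Fabp4 marked some of the cells and not all. Ctsk (chr3:95499256-95509362, plus strand) encodes cathepsin K, the collagen-degrading protease of osteoclasts, and stood at 53.0 CPM in SCDi and 90.9 CPM in vehicle cells, against 7.13 and 18.9 CPM in other macrophages of the SCDi and vehicle libraries. At least 1 UMI of Ctsk was found in 36.1% (31.3 to 41.1) of SCDi and 40.2% (35.5 to 45.2) of vehicle cells, against 7.85% and 14.2% of other macrophages. Lymphocytes, which should lack the gene and had median depths of 8679 and 9751 UMIs, gave 1.48% in the SCDi and 1.88% in the vehicle library. Fabp4 (chr3:10204088-10208576, minus strand), the fatty acid binding protein of adipocytes and macrophages, stood at 68.5 CPM in SCDi and 68.8 CPM in vehicle cells, log2 ratios over other macrophages of 2.88 and 1.46. Its UMIs were in 17.3% of SCDi and 18.3% of vehicle cells, against 0.888% and 0.628% of lymphocytes. At this depth 54.9% of SCDi and 53.2% of vehicle cells had no UMI of either gene, and 8.25% and 11.7% had both.

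**Figure D1:**
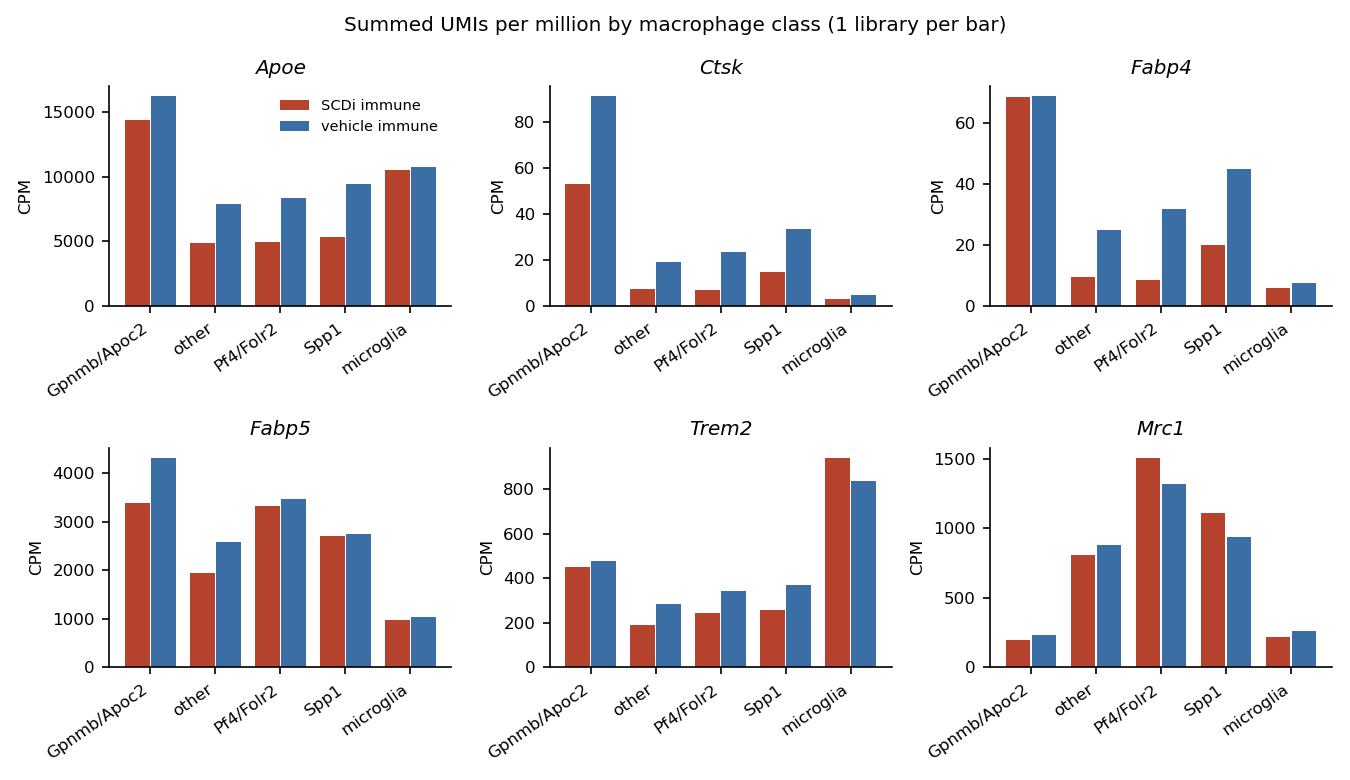
Levels (CPM, linear axis from 0) of marker genes in 5 classes of macrophages and microglia, with SCDi bars left of vehicle bars and 1 library per bar, so no error bars. Ctsk stood at 53.0 (SCDi) and 90.9 CPM (vehicle) in Gpnmb and Apoc2 macrophages, above each other class drawn.

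Compared with named classes of other macrophages, the 3 markers that did not set the rule stood apart to different degrees. Macrophages with Pf4 and Folr2, genes of resident macrophages at the brain's borders, had 4975 CPM of Apoe in the SCDi and 8317 in the vehicle library, and 6.66 and 23.5 CPM of Ctsk. Spp1 macrophages, taken by osteopontin and at least 1 UMI of Pdpn, Edn1 or Inhba, had 5327 and 9428 CPM of Apoe and 14.8 and 33.5 CPM of Ctsk. Spp1 macrophages were thus the nearest of the 2 classes for Ctsk, and also for Fabp4 at 19.9 and 44.8 CPM. Fabp5, a second fatty acid binding protein, was shared more widely, at 3392 CPM in SCDi and 4312 CPM in vehicle Gpnmb and Apoc2 macrophages, against 3330 and 3466 CPM in Pf4 and Folr2 macrophages.

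Several other genes rose with the level of Gpnmb. For this view the cells and the other macrophages with at most 1 Pf4 UMI were each thinned to 5000 UMIs and sorted by the number of Gpnmb UMIs left, into 878 SCDi and 637 vehicle cells with none, 115 and 95 with 1, 132 and 126 with 2 to 4, 86 and 94 with 5 to 9, and 88 and 120 with 10 or more. From the lowest to the highest of these bins, Apoe was 3528, 6828, 9350, 12905 and 25816 CPM in the SCDi library and 5511, 8330, 12860, 17445 and 20830 CPM in the vehicle library. Ctsk showed the same order in both libraries, with 5.01 and 141 CPM in the first and last SCDi bins and 6.28 and 177 CPM in the vehicle ones. Trem2, the lipid-sensing receptor, stood at 110 and 943 CPM in the first and last SCDi bins, and at 167 and 667 CPM in the vehicle ones. The lysosomal protease gene Ctsd stood at 777 and 5536 CPM in the SCDi bins and at 1082 and 4582 CPM in the vehicle ones. Cells outside the macrophage gate, 145 SCDi and 156 vehicle cells, entered this view only through the rule on Gpnmb and Apoc2. Differences between the bins, here and in the next paragraph, are thus partly set by the choice of cells.

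Other genes ran the opposite way or reached their highest level in between. Mrc1, the mannose receptor of border macrophages, was 442 CPM in the SCDi bin without Gpnmb and 56.8 CPM in the bin with 10 or more, and 538 and 110 CPM in the vehicle bins. Isg15, an interferon-induced ubiquitin-like protein, was 1936, 2330, 2356, 1819 and 1189 CPM in the SCDi bins and 1604, 1714, 1492, 1104 and 515 CPM in the vehicle ones, so that the cells richest in Gpnmb had the least in both libraries. In each of these 5 bins the SCDi level of Isg15 was above the vehicle level. In the last bin the SCDi level of Apoe was above the vehicle level, and in the other 4 bins it was below. Because thinned bins hold few UMIs per cell, single steps between neighbouring bins are not read further.

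**Figure D2:**
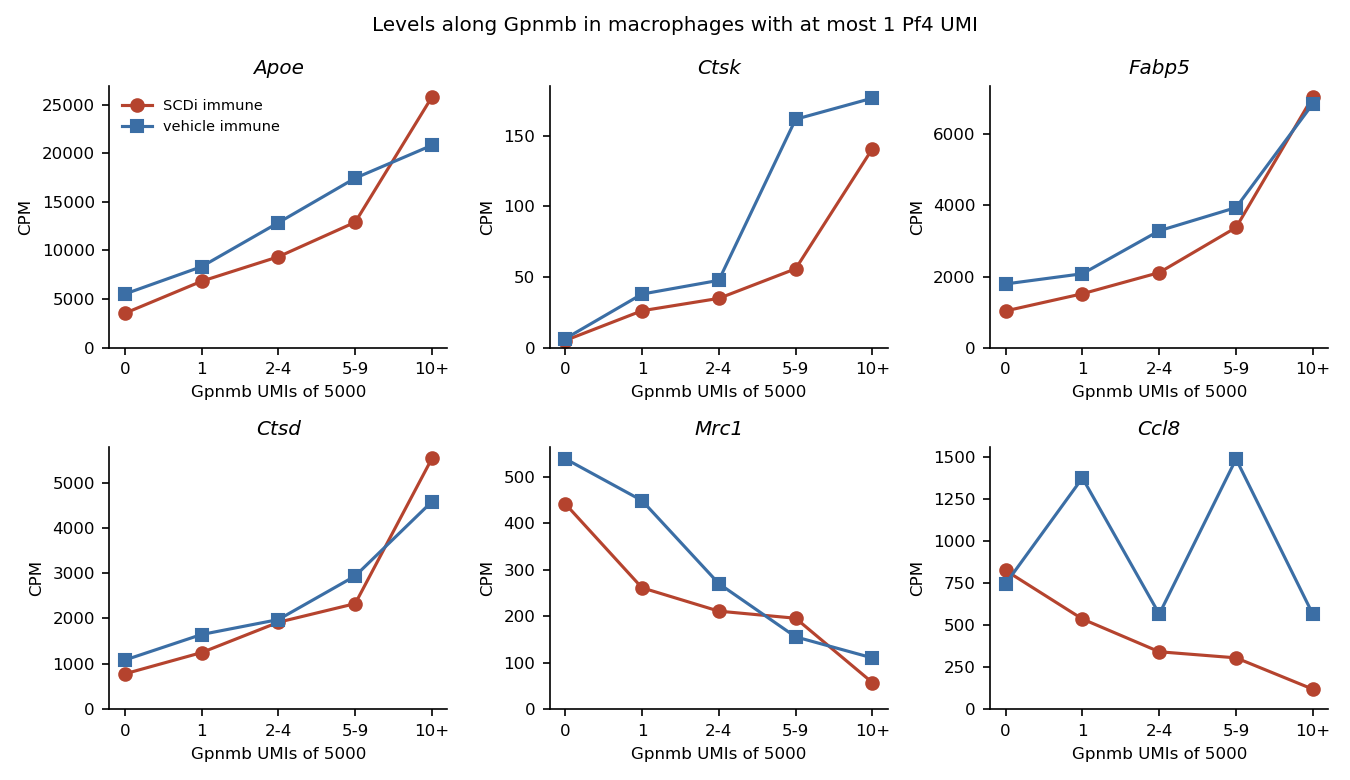
Levels (CPM, linear axis from 0) of selected genes in macrophages with at most 1 Pf4 UMI, thinned to 5000 UMIs and binned by Gpnmb UMIs (horizontal axis), in 1 SCDi and 1 vehicle library. Apoe and Ctsk are highest in the last bins, at 25816 and 141 CPM in the SCDi library, and Mrc1 is highest in bins with little Gpnmb.

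Beyond the markers, among genes that reached 20 CPM in at least 1 class, 111 of 5891 (1.88%) were at least 2-fold higher in the Gpnmb and Apoc2 macrophages than in other macrophages of the SCDi library, and 57 (0.968%) were at least 2-fold lower. In the vehicle library 82 of 5982 genes (1.37%) were higher and 44 (0.736%) lower by this rule. Of the 5768 genes measured in both, 62 (1.07%) were higher and 34 (0.589%) lower in both libraries. The median log2 ratio over all genes was -0.05 in the SCDi and -0.01 in the vehicle library.

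The genes with the highest ratio in both libraries included surface, cytoskeletal and lipid-handling proteins. Cd24a, a small lipid-anchored surface glycoprotein, had log2 ratios over other macrophages of 3.39 in the SCDi and 2.37 in the vehicle library, and Ctsk had 2.89 and 2.26. Syngr1, a membrane protein of synaptic vesicles, stood at 279 CPM in SCDi and 269 CPM in vehicle cells, against 51.5 and 65.8 CPM in other macrophages. Its gene overlaps Rpl3 on the opposite strand, and the sources used here do not state whether the counting used strand. Arhgap24, which inactivates the GTPase Rac, stood at 471 CPM in SCDi and 620 CPM in vehicle cells, against 132 and 208 CPM in other macrophages. Fam20c, the kinase of secreted proteins, had log2 ratios of 2.53 and 1.96. Osbpl3, an oxysterol-binding protein relative that carries lipid between membranes, had 1.78 and 1.75. Plxnc1, a receptor for semaphorins, had 1.55 and 1.56. Zfp704, Stra6l, Nav2, Adgb, Tent5c, Apbb2, Fabp4 and Bhlhe40 completed the 15 highest, with log2 ratios of 1.46 or more in both libraries, and Nav2 overlaps predicted genes on its own strand.

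The genes lowest relative to other macrophages included those of border macrophages and chemokines. The rule held Pf4 to at most 1 UMI, whereas other macrophages included 351 SCDi and 396 vehicle Pf4 and Folr2 macrophages. Low ratios of genes abundant in those cells, Ccl8 among them, are thus partly set by the choice of cells. Folr2, the folate receptor of resident macrophages, had log2 ratios of -2.40 in the SCDi and -2.94 in the vehicle library, and the exclusion of Pf4 by the rule bears on this gene directly. Mrc1 stood at 196 CPM in SCDi and 232 CPM in vehicle cells, against 806 and 881 CPM in other macrophages. Mmp13, a collagenase, had log2 ratios of -2.05 and -2.36, and Vcam1, an adhesion molecule, had -1.52 and -1.74. The monocyte-attracting chemokine Ccl7 had -1.65 and -1.58. Psd3, Dip2c, Nxpe5, Ccl8 and Clec4a2 made up the rest of the 10 lowest. Of the 6 measured markers of border and resident-like macrophages that did not set the rule, 2 were above other macrophages in each library, with medians of -0.05 and -0.30, and F13a1, a transglutaminase of monocytes and border macrophages, was one of these at 0.84 and 0.77.

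Lysosomal genes were higher almost throughout. The list held 35 measured genes of the lysosome or targets of the MiT/TFE factors that control it. Of these, 32 were above other macrophages in the SCDi library and 33 in the vehicle library, where 43.2% and 49.0% of all genes were. The list's median log2 ratio was 0.38 in the SCDi and 0.35 in the vehicle library. Ctsd, the aspartic protease cathepsin D, had the highest ratio of the list in the SCDi library at 1.23, against 0.93 in the vehicle library. Ctss, the cathepsin that trims the invariant chain, had 0.89 and 0.92, and Fnip2, a regulator of nutrient sensing at the lysosome, had 0.84 and 0.90. Ctsl, a cysteine protease, was the lowest of the list at -0.71 and -0.95, and Asah1, the acid ceramidase, was below other macrophages in both libraries too, at -0.18 and -0.04. Subunits of the vacuolar ATPase, the proton pump of the lysosome, were higher for 16 of 17 genes in the SCDi and 15 of 17 in the vehicle library, with small median ratios of 0.11 and 0.09. The largest was Atp6v0d2, a subunit also known from osteoclasts, at 1.57 and 0.86.

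Promoters of these lysosomal genes are shown because their known factors of the MiT/TFE family bind the palindrome CACGTG. Windows of the promoters of Ctsd and Lamp1, a lysosomal membrane glycoprotein, are printed from RefSeq on GRCm38.p6, 5' to 3' on the strand of the gene, with each CACGTG in capitals.
Ctsd (chr7:142387890-142388077, minus strand): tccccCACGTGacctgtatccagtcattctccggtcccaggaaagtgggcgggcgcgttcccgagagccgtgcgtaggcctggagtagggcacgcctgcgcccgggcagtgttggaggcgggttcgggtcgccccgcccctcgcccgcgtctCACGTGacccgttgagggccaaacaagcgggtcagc
Lamp1 (chr8:13159070-13159181, plus strand): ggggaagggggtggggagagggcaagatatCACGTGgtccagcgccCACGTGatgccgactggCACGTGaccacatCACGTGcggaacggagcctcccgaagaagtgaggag
The motif was searched on both strands, which for a palindrome are 1 search, in the 250 bases before to 50 bases after each start site. Of the 29 list genes with a promoter entry 9 (31.0%) held it, against 8.09% of 27025 genes with an entry, or 7.15% of 32851 promoters. Because the list includes targets of factors that bind this motif, its higher share is partly set by the choice of genes. None of the 4 marker genes with an entry held it, nor did any of the 10 with an entry among the 15 genes highest over other macrophages. A match describes these letters in this window and not bound factor.

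Genes of lipid-associated macrophages were higher than in other macrophages for 23 of 29 in the SCDi and 21 of 29 in the vehicle library, where 43.2% and 49.0% of all genes were, with medians of 0.58 and 0.46. Cd9, a tetraspanin, had log2 ratios over other macrophages of 1.72 and 1.30, and Trem2 had 1.25 and 0.74. Igf1, a growth factor, had 1.96 and 1.14. Lpl, the lipoprotein lipase that Apoc2 activates, went the other way, at -1.38 and -1.14. Pparg, the fatty acid receptor, was also lower, at -1.17 and -0.96, although Fabp3, Fabp4 and Fabp5 of the same list were higher.

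Sterol export genes were higher as well, and the counts below stand beside 43.2% of all genes in the SCDi and 49.0% in the vehicle library. Of 16 LXR targets and sterol export genes, 13 were above other macrophages in each library, with medians of 0.32 and 0.28. Npc1, which moves cholesterol out of the lysosome, had 0.79 in the SCDi and 0.87 in the vehicle library. Apoc1, a neighbour of Apoc2 in the lipoprotein cluster, had 1.45 and 1.47 at levels of 13.7 and 15.1 CPM. Ch25h, which makes 25-hydroxycholesterol, was lower at -1.22 and -1.64. The lipid droplet coat Plin2 had -0.03 in the SCDi library and was lower in the vehicle library, at -0.29. Of 9 measured lipid droplet genes, 6 were above other macrophages in the SCDi library and 4 in the vehicle library. The medians of this list were 0.09 and -0.07. Of 16 NRF2 and ferroptosis genes, 13 and 14 were higher, with medians of 0.30 and 0.20, among them Gpx4, which repairs oxidised lipids, at 0.67 and 0.58. Complement genes were mostly lower, with 3 and 2 of 12 above other macrophages and medians of -0.49 and -0.40. The C1q genes, C1qa among the 12, helped to define the other macrophages and not the Gpnmb and Apoc2 macrophages. Their level relative to other macrophages is thus partly set by the choice of cells.

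The share of Gpnmb and Apoc2 macrophages depended on the denominator. Among all kept immune barcodes they made up 6.01% (5.44 to 6.62) in the SCDi library and 5.89% (5.35 to 6.47) in the vehicle library, a difference of 0.12 percentage points (-0.68 to 0.93). Among cells that passed the macrophage gate they made up 13.4% (242 of 1809) in the SCDi and 15.8% (250 of 1587) in the vehicle library, a difference of -2.38 points (-4.77 to -0.002). With the rule applied after each cell was thinned to 5000 UMIs, the difference was -1.37 points (-3.91 to 1.12) among gated cells and -0.66 points (-1.41 to 0.086) among all kept cells. Of these cells and other macrophages together they made up 19.8% in the SCDi and 23.5% in the vehicle library, a difference of -3.62 points (-6.29 to -0.97). The interval of the gated share thus included 0 at equal depth, where 117 cells were left in each library. It also included 0 with doublet removal, Gpnmb at least 6 UMIs, Apoc2 at least 2 UMIs or Pf4 at 0 UMIs. It stayed below 0 with all deposited barcodes, Gpnmb at least 2 UMIs or at least 5 C1q UMIs. The same held with at least 500 genes and at most 10% mitochondrial UMIs, and without cells rich in dendritic cell and lymphocyte genes. The difference of -3.62 points was taken under the main rule only.

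**Figure D3:**
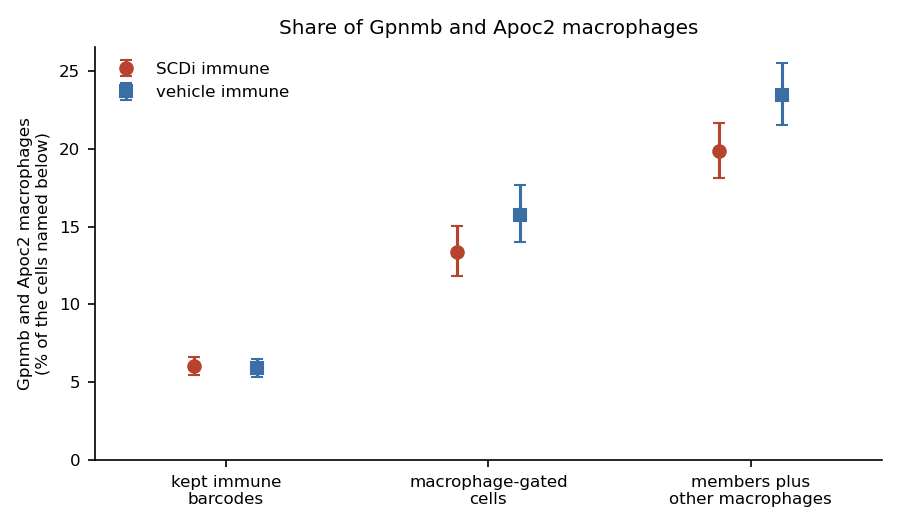
Share of Gpnmb and Apoc2 macrophages (% of the cells named on the horizontal axis) in the SCDi library (left of each pair) and the vehicle library (right), with exact 95% Clopper-Pearson intervals that cover counting error only. Among kept immune barcodes the shares were 6.01% (SCDi) and 5.89% (vehicle), and in the last pair, labelled members plus other macrophages, 19.8% and 23.5%.

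Between the treatments the profile of these cells was close for most genes. Of 5918 genes that reached 20 CPM in at least 1 library, 54 (0.912%) were at least 1.5-fold higher and 81 (1.37%) at least 1.5-fold lower in SCDi than in vehicle cells, and the median log2 ratio was -0.05. Among the 8803 genes with at least 5 CPM, the set in which gene lists were counted, 134 (1.52%) were higher and 377 (4.28%) lower by this fold, and 38.5% of ratios were above 0 with a median of -0.06. Other macrophages are set beside the Gpnmb and Apoc2 macrophages to show whether a ratio was shared.

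The markers that did not set the rule were lower or equal in SCDi cells. Apoe had a log2 ratio of -0.17 (-0.18 to -0.16), against -0.68 in other macrophages, and Ctsk had -0.78 (-0.95 to -0.61), against -1.41. Fabp4 had -0.01 (-0.17 to 0.16), against -1.43 in other macrophages, a difference of 1.42 (1.18 to 1.66). These 3 ratios were nearer to 0 than those of other macrophages, but for Ctsk the difference of 0.63 (0.37 to 0.89) became -0.035 with the rule applied to thinned cells. For Fabp4, 3 cells held 40.3% of the SCDi and 21.1% of the vehicle UMIs, and the ratio was -0.41 without the 3 richest cells of each library. The ratio of Apoe was 0.076 with the rule applied to thinned cells, so that its direction depends on this setting.

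Genes of the type I interferon response were higher in SCDi cells. Interferon from infected or stressed cells acts on a surface receptor, and the transcription factors activated there bind a short element in the promoters of antiviral genes. Of 23 measured genes 22 were above 0, where 38.5% of all genes were, and 10 were at least 1.5-fold higher, where 1.52% were. The median log2 ratio was 0.47 in Gpnmb and Apoc2 macrophages, against 0.21 in other macrophages, 0.18 in Pf4 and Folr2 macrophages, 0.25 in Spp1 macrophages and 0.17 in microglia. It was 0.50 both in the cells that passed the macrophage gate and in those that did not.

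Several antiviral genes show the size of these ratios. Isg15 stood at 1936 CPM in SCDi and 1213 CPM in vehicle cells, a log2 ratio of 0.67 (0.64 to 0.71), against 0.28 in other macrophages, with a difference of 0.39 (0.35 to 0.43). Rsad2, which encodes the antiviral enzyme viperin, stood at 774 CPM in SCDi and 491 CPM in vehicle cells, a ratio of 0.66 (0.60 to 0.71), against 0.13. Cmpk2, a nucleotide kinase beside Rsad2, stood at 135 CPM in SCDi and 73.7 CPM in vehicle cells, a ratio of 0.87 (0.73 to 1.01), against 0.14. For these 3 genes, the interval of the difference between the classes lay above 0. Ifit3, a blocker of viral RNA translation, stood at 543 and 322 CPM, and Ifit1, its relative, at 343 and 216 CPM, in SCDi and vehicle cells. Oas1a, which makes the second messenger of RNase L, stood at 119 CPM in SCDi and 65.0 CPM in vehicle cells.

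Some of the genes with the largest ratios of all belong to the same families. Oas1g stood at 37.0 CPM in SCDi and 17.5 CPM in vehicle cells, with a UMI in 194 and 102 of the cells, a log2 ratio of 1.08. Ifit3b had 1.01, at 129 and 64.4 CPM, and Ifit1bl1 had 0.96, at 143 and 73.9 CPM, with a difference from other macrophages of 0.76 (0.61 to 0.92). The Oas1 and Ifit genes have near-identical copies, so that reads may be split between them and the values of single copies are uncertain. The transcription factor Irf7, which raises interferon production, had 0.61 at 926 and 606 CPM, and it overlaps Phrf1 on the opposite strand. Oas2, a relative of Oas1a, stood at a ratio of 0.02.

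Promoter windows of 4 of these genes are printed from RefSeq on GRCm38.p6, because the interferon-stimulated response element is the known binding site of the factors that interferon activates. Sequences run 5' to 3' on the strand of the gene, and capitals mark GAAANNGAAA or its reverse complement, the letters searched on both strands.
Isg15 (chr4:156200845-156200926, minus strand): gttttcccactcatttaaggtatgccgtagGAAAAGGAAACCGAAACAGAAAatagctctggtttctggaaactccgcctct
Oas1a (chr5:120907500-120907575, minus strand): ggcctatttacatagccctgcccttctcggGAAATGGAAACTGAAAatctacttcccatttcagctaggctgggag
Ifit3 (chr19:34583343-34583446, plus strand): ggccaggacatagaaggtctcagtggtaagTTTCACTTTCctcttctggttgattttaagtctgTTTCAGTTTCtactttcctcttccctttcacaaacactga
Rsad2 (chr12:26456533-26456602, minus strand): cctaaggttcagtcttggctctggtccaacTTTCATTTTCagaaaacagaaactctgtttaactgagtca
In Isg15 and Oas1a neighbouring matches overlap and are joined in 1 run of capitals. Of the 16 list genes with a promoter entry 7 (43.8%) held the motif, against 3.99% of 27025 genes, or 3.44% of 32851 promoters. Because the list was made of interferon response genes, its higher share is partly set by the choice of genes. The last match lay 4 bases before the start site in Oas1a and 56 bases before it in Isg15. A match describes these letters and not bound factor.

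Cell by cell, the shift lay across the range. In cells thinned to 5000 UMIs, the 386 SCDi cells held a median of 48 UMIs of the interferon genes (quartiles 28 to 78), against 29 (18 to 53) in 404 vehicle cells. Other macrophages held 42 in the SCDi and 33 in the vehicle library, and microglia 17 and 19. The lower quartile of SCDi cells was thus near the median of vehicle cells. Plasmacytoid dendritic cell markers, which include the interferon-induced gene Bst2, summed to 1345 CPM in SCDi and 1105 CPM in vehicle cells, and monocyte markers to 4277 and 3249 CPM. The median log2 ratio of the 6 plasmacytoid genes was 0.97, against 0.24 in other macrophages, with Klk1, Cox6a2, Siglech and Ccr9 at 14.2 to 15.9 CPM in SCDi cells, where 3 cells held 72.7% to 97.6% of the UMIs of each. Without cells that held 5 or more UMIs of dendritic cell and lymphocyte genes the interferon median was 0.48. Monocyte markers had summed levels of 2888 and 2694 CPM in other macrophages, and the part of monocytes in the result was not tested.

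**Figure D4:**
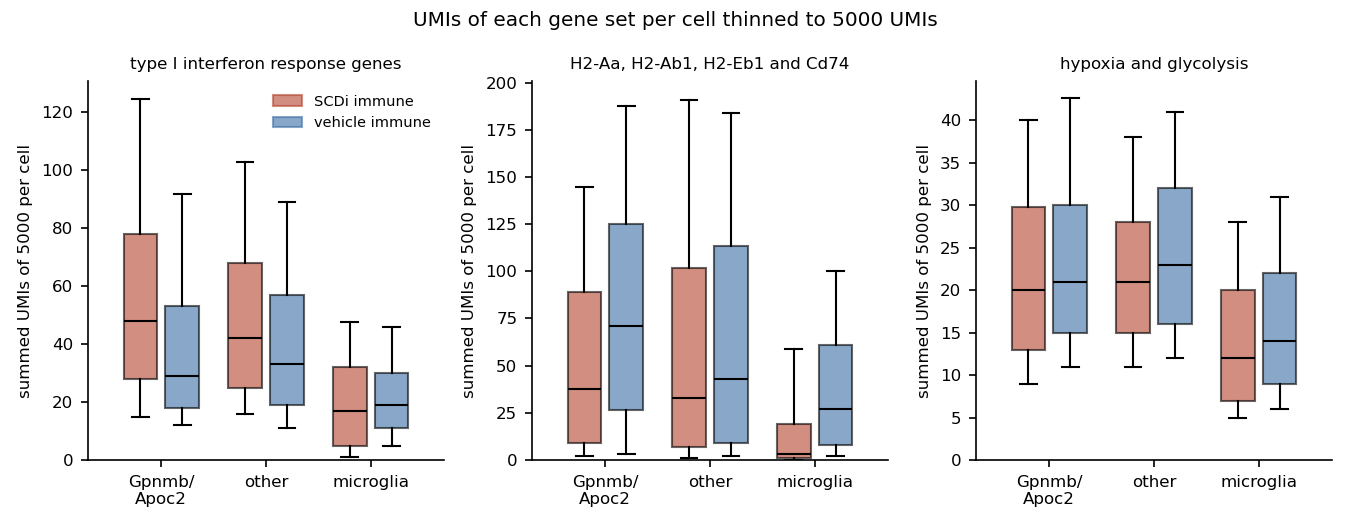
Summed UMIs of gene sets per cell after thinning to 5000 UMIs, in Gpnmb and Apoc2 macrophages, other macrophages and microglia of the SCDi library (left of each pair) and the vehicle library (right), 1 library each. Boxes span the quartiles with the median as a line and whiskers run from the 10th to the 90th percentile. Interferon genes had medians of 48 UMIs in SCDi and 29 UMIs in vehicle Gpnmb and Apoc2 macrophages.

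Chemokines went both ways. Of 13 measured CC and CXC chemokines 9 were above 0 in SCDi cells, where 38.5% of all genes were, and the median log2 ratio was 0.21, which moved to 0.071 with doublet removal, 0.077 with Pf4 at 0 UMIs and 0.40 with the rule applied to thinned cells. Ccl2, the main attractor of monocytes, stood at 877 CPM in SCDi and 565 CPM in vehicle cells, a ratio of 0.63 (0.58 to 0.69), against 0.46 in other macrophages. Cxcl10, an interferon-induced attractor of T cells, stood at 1222 CPM in SCDi and 893 CPM in vehicle cells, a ratio of 0.45 (0.41 to 0.50), against -0.16. Ccl8, a monocyte attractor, was the lowest of the list. It stood at 341 CPM in SCDi and 880 CPM in vehicle cells, with a UMI in 165 and 210 of the cells, a ratio of -1.37 (-1.43 to -1.31). Other macrophages had 2491 CPM of Ccl8 in the SCDi and 2599 CPM in the vehicle library, a ratio of -0.06, and the ratios differed by -1.31 (-1.37 to -1.24).

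The lower Ccl8 level was not carried by a few cells. Without the 3 cells richest in Ccl8 in each library the ratio was -1.48. At equal depth of 5000 UMIs, 18.4% of SCDi and 29.0% of vehicle cells had a UMI of Ccl8, against 11.4% and 14.8% of lymphocytes, which should lack it and had 23.5 and 47.9 CPM. In Pf4 and Folr2 macrophages, where Ccl8 was most abundant of the classes compared, it ran the other way at 6488 CPM in the SCDi and 5276 CPM in the vehicle library, and Spp1 macrophages had 2688 and 1807 CPM.

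Several antigen presentation genes of MHC class II were lower in SCDi cells. Of 13 genes 4 were above 0, a share near the 38.5% of all genes. The median log2 ratio was -0.26, against -0.13 in other macrophages, -0.48 in Pf4 and Folr2 macrophages and -0.50 in microglia. In Spp1 macrophages it was -0.04, with 6 of 12 measured genes above 0. Ciita, the master regulator of the family, stood at 35.1 CPM in SCDi and 64.5 CPM in vehicle cells, a ratio of -0.88 (-1.08 to -0.67), against -0.29 in other macrophages. H2-Ab1, the beta chain of I-A, stood at 2503 and 3553 CPM, a ratio of -0.51 (-0.53 to -0.48), against -0.12. Cd74, the invariant chain, had -0.36, and H2-Oa, at 6.46 and 3.34 CPM, had the highest ratio at 0.94, or 0.083 without cells that held 5 or more UMIs of dendritic cell and lymphocyte genes. Per cell at 5000 UMIs, H2-Aa, H2-Ab1, H2-Eb1 and Cd74 summed to a median of 37.5 UMIs in SCDi cells and 71 UMIs in vehicle cells, against 33 and 43 UMIs in other macrophages. Conventional dendritic cell markers, whose own cells are rich in these genes, summed to 396 CPM in SCDi and 363 CPM in vehicle cells, and migratory dendritic cell markers to 42.2 and 61.1 CPM. The part of dendritic cells in the MHC class II difference was not tested. MHC class I genes were above 0 for 15 of 18, with a small median of 0.08.

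In the list of anti-inflammatory and growth factor genes, Arg1 had the largest difference. This gene encodes arginase, which consumes the arginine that T cells need, and it stood at 10.5 CPM in SCDi and 103 CPM in vehicle cells. The log2 ratio was -3.28 (-3.62 to -2.98), against -2.15 in other macrophages. Arg1 was found in 14 SCDi cells (3.61%) and 85 vehicle cells (20.7%), against 0.592% and 0.628% of lymphocytes, and in the SCDi library 3 cells held 76.3% of its UMIs. Without the 3 richest cells of each library the ratio was -4.96. Vegfa, the vascular growth factor, stood at 23.3 CPM in SCDi and 47.7 CPM in vehicle cells, a ratio of -1.03, against -1.30 in other macrophages. Chil3, a chitinase-like protein of monocytes and alternatively activated cells, ran the other way at 612 and 403 CPM, a ratio of 0.60 (0.54 to 0.66), against -0.18. Of the 17 genes of this list 5 were above 0 and the median was -0.07, close to the 38.5% and the -0.06 of all genes.

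Genes of hypoxia and glycolysis were mostly lower by small amounts. Of 23 genes 2 were above 0, where 38.5% of all genes were, and 4 were at least 1.5-fold lower, where 4.28% were. The median log2 ratio was -0.24, against -0.17 in other macrophages, and it was -0.085 with the rule applied to thinned cells. Hilpda, a lipid droplet protein induced by hypoxia, had -0.65 (-0.86 to -0.44), against -1.38. Egln3, the oxygen sensor, had -0.99 and Pdk1, which inhibits pyruvate dehydrogenase, had -0.74. Egln3 rested on few UMIs: without the 3 richest cells of each library 16 SCDi and 29 vehicle UMIs were left, at a ratio of -0.90. Per cell at 5000 UMIs the medians were 20 UMIs in SCDi and 21 UMIs in vehicle cells, so that the difference per cell was about 1 UMI.

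Genes of S phase and mitosis were lower in SCDi cells, from few cells. Of 13 measured genes none was above 0, where 38.5% of all genes were, and 8 were at least 1.5-fold lower, where 4.28% were, with a median log2 ratio of -1.32, against 0.87 for the same genes in other macrophages. Top2a, the topoisomerase of dividing cells, stood at 3.40 CPM in SCDi and 22.9 CPM in vehicle cells, and 3 cells held 73.4% of its vehicle UMIs. Without the 3 richest cells of each library its ratio was -1.28 and not -2.73, and that of Stmn1, a microtubule regulator, was -0.52 and not -1.86. At 5000 UMIs, 3.37% (1.81 to 5.69) of SCDi and 6.68% (4.45 to 9.58) of vehicle cells had a UMI of Mki67 or Top2a, against 4.90% and 3.60% of other macrophages. At least 5 UMIs of these 2 genes were found in 0 of 388 SCDi cells (interval up to 0.946%) and in 4 vehicle cells. The list's median was -0.070 without the cells that had any UMI of the 2 genes, -0.43 without cells that held 5 or more UMIs of dendritic cell and lymphocyte genes, -0.50 with Pf4 at 0 UMIs and -0.31 with the rule applied to thinned cells.

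**Figure D5:**
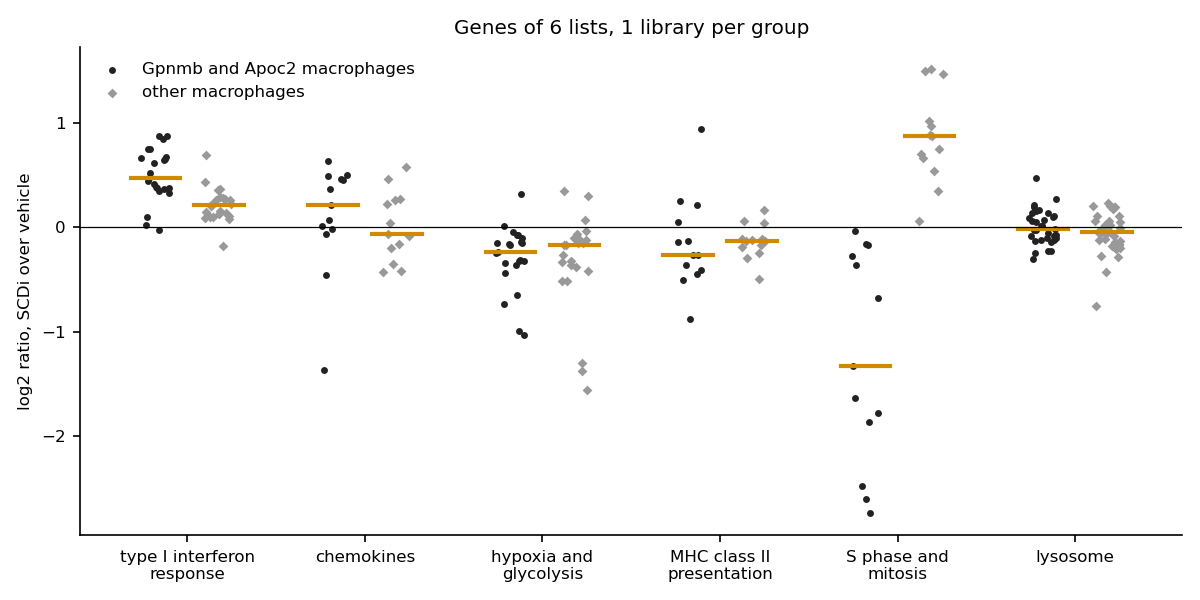
Log2 ratio of SCDi over vehicle for each measured gene of 6 gene lists, with Gpnmb and Apoc2 macrophages left and other macrophages right in each pair, horizontal lines at the medians, and 1 library per group. Interferon genes had a median of 0.47 in Gpnmb and Apoc2 macrophages and S phase and mitosis genes -1.32.

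Most lists of lipid genes had medians near 0 between the treatments, where all genes had a median of -0.06 and 38.5% above 0, and single genes differed more. Of the desaturases, the targets of SCDi, Scd2 stood at 45.4 CPM in SCDi and 32.4 CPM in vehicle cells, a log2 ratio of 0.49 (0.26 to 0.71), against 0.63 in other macrophages. Scd1 had 6 UMIs in all SCDi and 7 in all vehicle cells. The lipid-associated macrophage list had 18 of 29 genes above 0 and a median of 0.05, with Igf1 at -0.64 and Mmp12 at -0.84. The lysosome list had 17 of 35 above 0 and a median of -0.01, and the lipid droplet list 7 of 9 and 0.06. Cholesterol synthesis genes were above 0 for 12 of 16, with a median of 0.17, against 0.15 in other macrophages. Ch25h stood at 31.9 CPM in SCDi and 14.4 CPM in vehicle cells, a ratio of 1.14 (0.83 to 1.47), against 0.73 in other macrophages, and it overlaps a predicted gene on the opposite strand. Lipg, the endothelial lipase, stood at 41.9 CPM in SCDi and 20.5 CPM in vehicle cells, a ratio of 1.03, against 1.11 in other macrophages. Fabp5 had -0.35, against -0.41.

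Other genes at the extremes included surface receptors and genes of other cell types. Cd72, an inhibitory lectin that overlaps Tesk1 on the opposite strand, stood at 219 CPM in SCDi and 108 CPM in vehicle cells, a log2 ratio of 1.03, against 0.41, with a difference of 0.62 (0.50 to 0.73). Slamf9, a surface receptor of myeloid cells, had 0.92 at 155 and 81.5 CPM, Serpina3g, a protease inhibitor, had 0.91 at 101 and 53.4 CPM, and Ccnd2, a cyclin, had 1.11, against 1.05 in other macrophages. The lymphocyte genes Gzmb, Klrd1 and Gzma had ratios of 2.07, 1.31 and 1.13. Of the Gzmb UMIs, 80.6% in the SCDi and 55.4% in the vehicle cells lay in 3 cells, and Gzmb was in 7.47% of SCDi and 10.2% of vehicle cells, against 45.6% and 51.7% of lymphocytes. In cells with fewer than 5 UMIs of dendritic cell and lymphocyte genes, an alternative chosen after seeing the data, the 3 ratios were -0.49, -1.01 and -0.17. Natural killer cell markers summed to 155 CPM in SCDi and 86.5 CPM in vehicle cells, with 0 of the 6 genes at 0. In other macrophages they summed to 123 and 81.9 CPM, and in Spp1 macrophages to 131 and 72.4 CPM. Likewise Ccr7, the receptor of migrating dendritic cells, had -1.36 with 89.2% of its vehicle UMIs in 3 cells, and 0.12 without the 3 richest cells of each library.

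Further genes low in SCDi cells were Bbs9 at -1.17, Junos at -1.15, Ust at -1.13, Ppfibp2 at -1.05 and Atad2 at -0.99 on the log2 scale, and Rrm1 was at least 1.5-fold lower. Rrm1, a subunit of ribonucleotide reductase, and Atad2, a chromatin factor, are known from dividing cells. Junos is antisense to Jun, and the sources used here do not state whether the counting used strand. The marker genes of fibroblasts were at 0 in all 6 cases in both libraries, and 8 EO771 tumour genes summed to 4.87 CPM in SCDi and 4.29 CPM in vehicle cells.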

How the data were processed

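Each library was deposited as 1 matrix of raw UMI counts, with 32285 genes. Cell Ranger 7.1.0 and mm10 are named in the submitters' processing notes, and R studio with Seurat in the labels' protocol. The gene annotation and the treatment of intronic reads are not stated there.

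Barcodes with at least 300 genes and at most 15% mitochondrial UMIs were kept (6453 of 6777 SCDi and 6959 of 7332 vehicle immune barcodes), without doublet removal, and removal of the highest doublet scores was an alternative. UMIs were summed over cells and scaled to CPM, and log2 ratios were taken with 0.5 counts added. Ratios have exact conditional binomial intervals, shares exact Clopper-Pearson intervals, differences of shares Newcombe intervals and differences of ratios delta-method intervals, all at 95%. No test across animals was possible with 1 library per group. The alternatives that left out the 3 cells richest in a gene in each library, or cells with 5 or more UMIs of dendritic cell and lymphocyte genes, were chosen after seeing the data. Thinning drew 5000 UMIs per cell without replacement. PCR duplicates are removed by UMIs, but intervals and limits cover counting error only.

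Genes were named as the 12 highest and 12 lowest SCDi over vehicle ratios among genes with at least 20 CPM, the 15 highest and 10 lowest over other macrophages, the markers and gate genes, and the extremes of each list. Mitochondrial, ribosomal protein, predicted and receptor segment genes were left out. Other genes named were chosen after their values were seen, and some genes of the lists are not reported here. The cells, the rule and the 28 gene lists were chosen with earlier results of these data known. Sequences are from RefSeq (GRCm38.p6), and positions from GENCODE on GRCm38. The scripts used Python 3.11.15, numpy 2.4.6, pandas 2.3.3, scipy 1.17.1 and matplotlib 3.10.9, and the interval calculation was tested on simulated data.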

Additional observations from a re-analysis of the deposited data

Results flagged for a closer look

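SCDi over vehicle ratios of opposite sign in Gpnmb and Apoc2 macrophages and in other macrophages, with both counting intervals beyond 0, were looked for. The search covered the medians of the gene lists and the genes whose treatment ratios are given. None of the differences was tested, since each group is 1 library. For Top2a the log2 ratio in Gpnmb and Apoc2 macrophages minus that in other macrophages was -3.60, with 73.4% of the vehicle UMIs of Top2a in 3 cells. For Stmn1, also a gene of dividing cells, it was -2.83. As given above, the ratio of Stmn1 was smaller in size without the 3 richest cells of each library. For Cxcl10, an interferon-induced chemokine, it was 0.61, from 0.45 in Gpnmb and Apoc2 macrophages and -0.16 in other macrophages. For Chil3, a chitinase-like protein of macrophages, it was 0.78, from 0.60 and -0.18. Genes named for other reasons, among them further single genes of the lists, were not searched. Some had opposite signs too, such as Ctsl of the lysosome list at 0.11 in Gpnmb and Apoc2 macrophages and -0.14 in other macrophages. The median of S phase and mitosis genes differed by -2.19 between the classes, and the median of CC and CXC chemokines by 0.27. In Gpnmb and Apoc2 macrophages the S phase and mitosis median was much smaller in size without cells that had a UMI of Mki67 or Top2a.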

How the results depend on the processing

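There is 1 library per group, so leaving out a replicate was not possible, and every value describes pooled animals. No paired analysis was possible because each group has 1 library. Gene levels rest on 388 SCDi and 410 vehicle cells, and low genes on few UMIs. Of gene ratios under the alternatives 413 stayed within the main interval and sign, 102 moved and 13 turned; of the differences from other macrophages 389 stayed, 98 moved and 8 turned; of list medians 375 stayed and 15 moved. The share among gated macrophages ranged from -2.78 to -1.37 points, and that among kept cells from -0.66 to 0.21. The cause of each change was not tested.

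Genes at least 1.5-fold higher in SCDi cells numbered 82 with Gpnmb at least 6 UMIs and 1465 with no filter on CPM, and genes lower 24 with at least 50 CPM and 2199 with no filter. Over other macrophages, genes higher in the SCDi library numbered 68 with at least 50 CPM and 1480 with no filter, and genes lower 113 with the gate thinned and 805 with no filter. In the vehicle library, higher genes numbered 49 with at least 50 CPM and 1641 with no filter, and lower genes 68 with Gpnmb at least 6 UMIs, 106 with the gate thinned, 28 with at least 50 CPM and 590 with no filter.

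Without cells that held 5 or more UMIs of dendritic cell and lymphocyte genes, chosen after seeing the data, Gzmb had a log2 ratio of -0.49 and a difference from other macrophages of -1.51, Klrd1 -1.01 and -0.87, and Gzma -0.17 and -0.84. With the gate thinned, Klrd1 had -0.36 and a difference of -0.66, Gpnmb 0.076, Apoe 0.076, and the differences of Ust and Ctsk were 0.018 and -0.035. The ratio of Ccr7 was 1.20 with doublet removal, 0.34 with Gpnmb at least 6 UMIs, 0.40 with Apoc2 at least 2, 1.46 with the gate thinned, 1.38 in cells that passed the macrophage gate and 0.12 without the 3 richest cells per library, the last chosen after seeing the data. In cells that passed the macrophage gate, Spp1 had -0.15 and a difference of -0.15, and with Pf4 at 0 the difference of Gpnmb was -0.075.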
